A study of Mus musculus with 11 samples.

Results

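The genes described here are those of cholesterol synthesis, of cholesterol uptake and of SREBP2, the transcription factor that governs both, in hearts of female mice. They were chosen by name: 28 symbols were looked up among the RefSeq accessions of the deposited table, and 27 were found, each in 1 row, of 21878 rows in all. Stard4 was not analysed here. In the study, 5 heart samples of females with a PCOS-like (polycystic ovary syndrome) state, induced with anti-Müllerian hormone (AMH) before birth, were set against 6 heart samples of controls given phosphate-buffered saline (PBS), the vehicle, before birth. All 11 samples are labelled wild type (WT) and heart. Strain, age and dose are not given in the labels, nor is it stated that each sample is a different mouse. The p-values set the difference between the groups against the spread between these samples, part of which may be technical. If some samples share a mouse, they are not independent and the p-values may be too small.

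Cells make cholesterol from acetyl-CoA through mevalonate, farnesyl diphosphate, squalene and lanosterol. When cholesterol in the endoplasmic reticulum is low, the escort protein SCAP carries SREBP2 to the Golgi, where proteases release its transcription-factor part, and the enzymes of the pathway and receptors for lipoproteins are transcribed. When cholesterol is high, INSIG proteins hold SCAP and SREBP2 back. The heart takes up lipids from lipoproteins and also makes cholesterol, and the liver is a main site of synthesis.

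Promoters of these genes are known for sterol regulatory elements, which SREBP2 binds, and for CCAAT boxes, which the factor NF-Y binds. RefSeq windows from 250 bases before to 50 bases after the start (GRCm38.p6) were at hand for 22 of the 28 symbols, not for Sqle, Scarb1, Fdft1, Fdps, Stard4 or Acat1. A CCAAT match on either strand was present in at least 1 window of 19 of the 22 genes (86.4%), against 41.1% of the 27025 genes with a window. Acat2, Lrp1 and Scap had none in theirs. The letters TCACNCCAC, searched on both strands for the sterol regulatory element, were found in 1 of the 22, Hmgcs1, and in 1.4% of all genes with a window. No match says only that these letters are not in the window. The matches printed here do not overlap. The stretches below, all before the start of the RefSeq transcript and read on the gene's strand, show the TCACNCCAC match of Hmgcs1 with the nearest CCAAT match on each side, and CCAAT matches of a late-pathway enzyme, of an INSIG gene and of Srebf2 itself. They are parts of the windows: 2 of 4 CCAAT matches are shown for Hmgcs1, 2 of 3 for Hsd17b7, 1 of 3 for Insig2 and 1 of 1 for Srebf2. Capitals mark TCACNCCAC, CCAAT, or ATTGG, which is CCAAT on the opposite strand.
Hmgcs1, chr13:119690166-119690320, plus strand: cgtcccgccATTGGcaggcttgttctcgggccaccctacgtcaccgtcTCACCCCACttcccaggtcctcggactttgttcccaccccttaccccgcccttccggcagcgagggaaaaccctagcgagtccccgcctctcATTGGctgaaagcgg
Hsd17b7, chr1:169969266-169969375, minus strand: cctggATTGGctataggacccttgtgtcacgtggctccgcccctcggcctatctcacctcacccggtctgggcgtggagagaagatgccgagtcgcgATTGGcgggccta
Insig2, chr1:121332663-121332729, minus strand: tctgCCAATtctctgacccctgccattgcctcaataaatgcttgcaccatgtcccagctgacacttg
Srebf2, chr15:82147119-82147159, plus strand: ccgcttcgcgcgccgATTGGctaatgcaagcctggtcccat

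Whole reads recovered from the values summed to between 11866291 and 14346620 per library. Levels are FPKM, the read count of a gene scaled to its transcript length in kilobases and to the size of the library. As a check of the tissue label, 5 of 6 cardiomyocyte markers were in the table, and they summed to 28160 to 34320 FPKM with none at 0. Control replicate 6 stood apart. Its median correlation with the other libraries, across genes, was 0.962, against 0.987 to 0.993 in the others, and its 12 hepatocyte markers summed to 1735 FPKM, against 4.51 to 12.7 in the other 10 libraries (2 of the 12 were at 0 in all PCOS samples). Its 5 adipocyte markers in the table, of 6 listed, summed to 1296 FPKM, against 596.1 to 990.2 elsewhere. Control replicates 2 and 5 also stood apart, with Apoe at 6.04 and 8.29 FPKM against 98.8 to 486.3 in the other libraries. The 7 macrophage markers in the table, of 9 listed, summed to 278.8 to 389.4 FPKM in PCOS and 130.6 to 252.2 in controls, with no overlap. All 7 had positive log2 differences (median 0.550, and 0.638 without control replicate 6), 5 of them with an unadjusted p under 0.05. Of the 7, 1 was called (0.138% of all tested rows), and 2 without control replicate 6 (0.294%). The 5 red cell markers summed to 849.4 to 2229 FPKM in PCOS and 530.3 to 1528 in controls, and all 5 had positive log2 differences (median 0.750, and 0.893 without control replicate 6) with an unadjusted p under 0.05, none of them called. The part of either list in the results was not tested. Because each sample is whole tissue, fewer cells of a type and less RNA per cell cannot be told apart.

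Most genes of the pathway had mean levels under 10 FPKM in these hearts. Over the 11 libraries, 6 of the 27 genes had a mean level above 10 FPKM, 18 lay between 1 and 10 FPKM, and 3 (Sqle, Idi1 and Lss) lay under 1 FPKM. The median of the 27 mean levels was 5.03 FPKM. A mean of at least 5 FPKM was reached by 14 of the 27 genes and by 6830 of the 21878 rows. Acat1, the mitochondrial acetyl-CoA acetyltransferase, which also serves ketone body use, was far above the rest at 214.7 to 242.3 FPKM over the 11 libraries. Next came Insig2 at 14.4 to 19.4 FPKM, and then Fdps, Ebp, Hmgcs1 and Scarb1, whose ranges overlapped. Sqle and Idi1, both known as strongly sterol-regulated enzymes, had 2 to 44 and 13 to 33 reads per library, so their values carry large counting error.

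**Figure D1:**
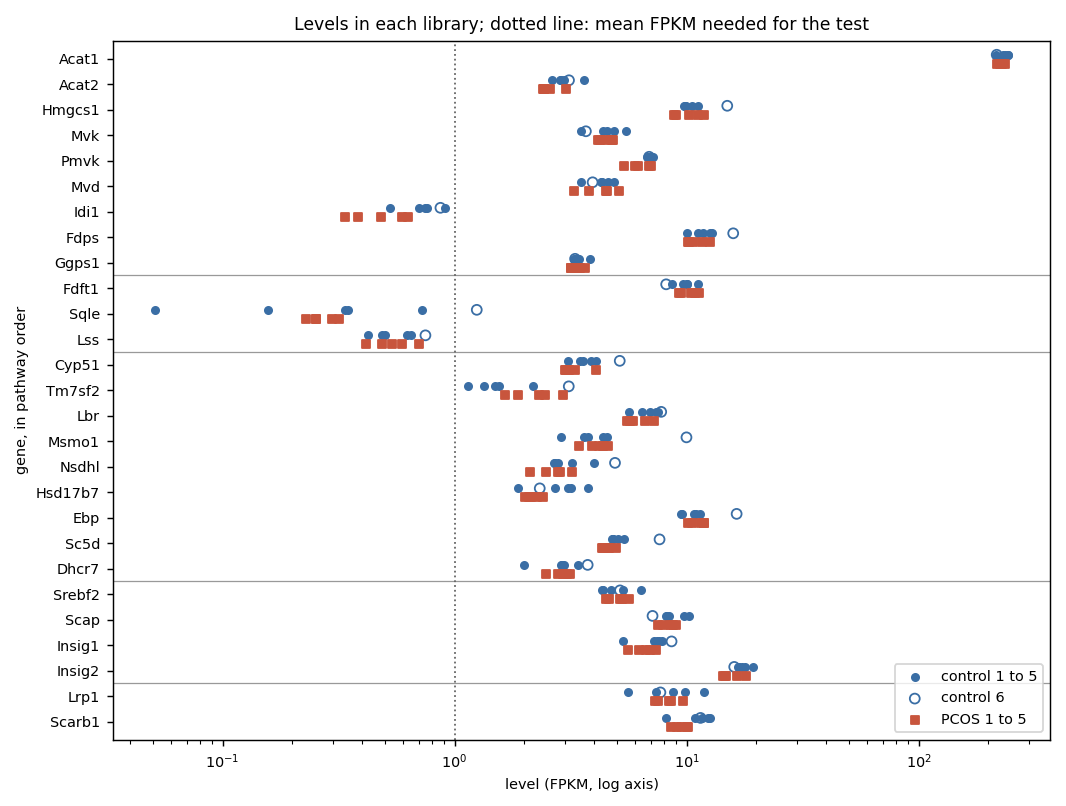
Level of each of the 27 genes in each library, in FPKM on a log axis, in pathway order (round: control, square: PCOS, open: control replicate 6). Acat1 lies far above the rest in every library, 3 genes have means under the dotted line of 1 FPKM, and the open circle is the highest point in 13 genes.

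No gene of this group passed the test between PCOS and control heart samples. The comparison asks whether transcripts of cholesterol synthesis and uptake differ after AMH exposure before birth. Of the 27 genes, 24 had a mean of at least 1 FPKM and entered the test, limma on log2(FPKM + 1) over all 10891 such rows with Benjamini-Hochberg adjustment. Of the 24, 0 were called at an adjusted p under 0.05, against 0.138% of all tested rows (15 rows, all higher in PCOS). The smallest adjusted p in the group was 0.738. Voom, limma's method for counts, run on the recovered reads, also called 0 of the 24 (0.110% of all rows), with a smallest adjusted p of 0.758. With no filter, 0 of the 27 were called (0.0812% of all rows). At an unadjusted p under 0.05 there were 3 of the 24 (12.5%), against 6.68% of all tested rows, and all 3 (Scarb1, Hsd17b7 and Acat2) had lower means in PCOS, where the background for that direction was 3.17%. Without control replicate 6 there were also 3 of the 24 (Tm7sf2 higher, Hsd17b7 and Insig2 lower), but against 19.4% of all tested rows, and Scarb1 (unadjusted p = 0.0718) and Acat2 (unadjusted p = 0.0709) were no longer among them.

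The fitted differences leaned below 0. Each is the PCOS mean less the control mean of log2(FPKM + 1), a scale on which weakly transcribed genes show too small a change. They were negative in 20 of 24 genes, against 49.4% of all tested rows, with a median of −0.105 against 0.002. Without control replicate 6 they were negative in 18 of 24, against 50.3% of all rows, with a median of −0.055 and 0 called (0.294% of all rows). In the fits with no filter, 15 of the 27 differences lay nearer to 0 without that library, a count not made over all rows. Without control replicate 1 the fitted differences were negative in 15 of 24, against 45.6% of all rows, with a median of −0.120. The differences ran from −0.25 for Hsd17b7 to 0.23 for Tm7sf2, and the 95% confidence interval included 0 in 21 of 24 genes. Over the 24 intervals the bound farthest from 0 corresponded to 1.49-fold on this scale. In 0 of the 27 genes did every PCOS sample lie outside the control range, where 0.450% of tested rows had all PCOS samples above and 0.248% all below the controls.

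**Figure D2:**
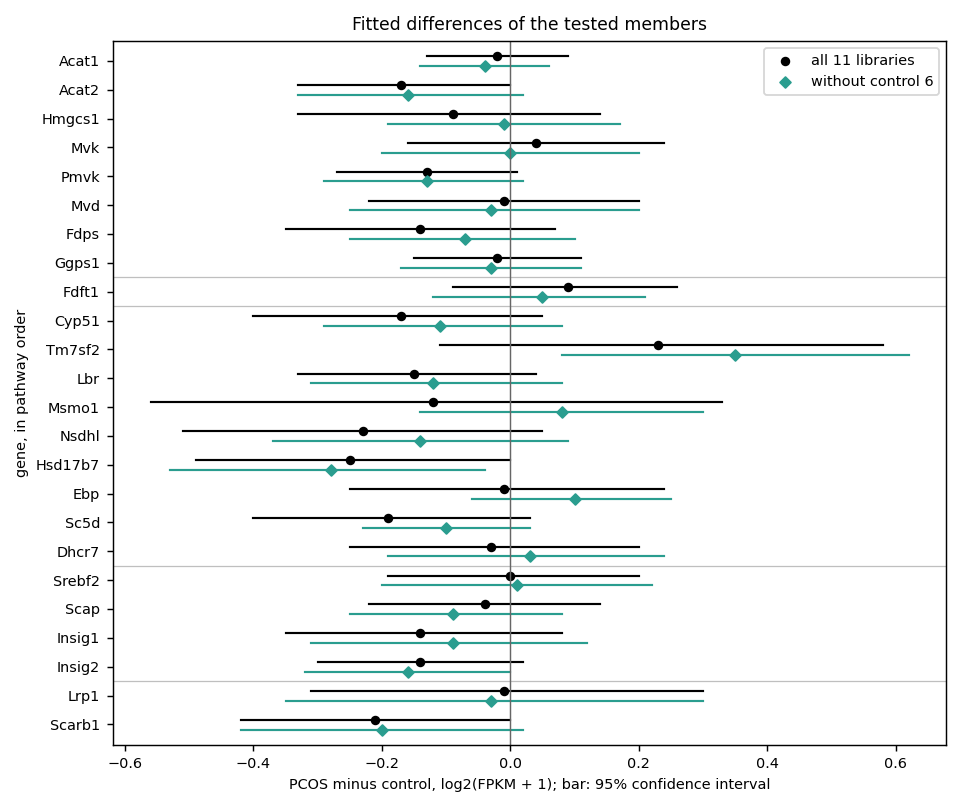
Fitted PCOS minus control difference of the 24 tested genes, log2(FPKM + 1), with 95% confidence intervals, over all 11 libraries (black) and without control replicate 6 (green). Most points lie between −0.25 and 0.1, and Tm7sf2 is the point farthest to the right in both fits.

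Of SREBP2 and its regulators, none of the 4 tested genes passed, and in each the groups overlapped. Srebf2, which encodes SREBP2 (chromosome 15, 82147269 to 82205379), was at 6.38, 4.38, 4.71, 5.31, 4.31 and 5.16 FPKM in control replicates 1 to 6 and at 5.15, 4.62, 4.49, 5.64 and 5.28 FPKM in PCOS replicates 1 to 5. The PCOS values lay inside the control range, and control replicate 1 was the highest. The means were 5.04 ± 0.769 FPKM (SD, n = 6) and 5.04 ± 0.478 FPKM (SD, n = 5), and the log2 difference was 0.00 (95% confidence interval −0.19 to 0.20).

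Scap, the escort of SREBP2 (chromosome 9, 110333288 to 110384949), was at 10.2, 8.42, 8.26, 9.73, 8.12 and 7.13 FPKM in controls and at 7.56, 8.999, 7.94, 8.56 and 8.72 FPKM in PCOS. Control replicate 6 was the lowest of all and the groups overlapped. Its log2 difference was −0.04 (95% confidence interval −0.22 to 0.14), and −0.09 without that library.

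Insig1, itself induced by SREBP2 and a brake on it (chromosome 5, 28071412 to 28078662), was at 7.23, 5.31, 7.46, 7.86, 7.64 and 8.61 FPKM in controls and at 6.96, 5.61, 6.24, 7.36 and 6.66 FPKM in PCOS. Of the 6 controls, 4 lay above every PCOS sample, while control replicate 2 was the lowest of all. This gave a log2 difference of −0.14 (SE 0.10, 95% confidence interval −0.35 to 0.08), and −0.09 without control replicate 6.

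Insig2, the second INSIG gene (chromosome 1, 121304353 to 121332662), was at 16.8, 17.3, 16.6, 19.4, 17.9 and 16.04 FPKM in controls and at 14.6, 14.8, 18.1, 16.5 and 14.4 FPKM in PCOS. PCOS replicates 1, 2 and 5 lay below every control, and PCOS replicate 3 was above all controls but replicate 4. Between the groups the log2 difference was −0.14 (95% confidence interval −0.30 to 0.02, limma adjusted p = 0.738). In these hearts Insig2 transcripts stood above those of Insig1 per length, at 17.4 ± 1.196 against 7.35 ± 1.11 FPKM in controls and 15.7 ± 1.60 against 6.57 ± 0.675 FPKM in PCOS, with no overlap between the 2 genes in any library.

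In the mevalonate pathway and its precursor supply, 0 of 8 tested genes passed, and 7 of the 8 differences were negative (median −0.058). Hmgcs1, which makes HMG-CoA (chromosome 13, 119690351 to 119708260), was at 9.96, 10.5, 9.83, 9.71, 11.2 and 14.97 FPKM in controls and at 8.87, 10.2, 11.2, 11.8 and 9.02 FPKM in PCOS. Control replicate 6 was far above the other controls. The log2 difference was −0.09 (95% confidence interval −0.33 to 0.14), and without that library it was −0.01 (95% confidence interval −0.19 to 0.17).

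Acat2, the cytosolic acetyl-CoA acetyltransferase at the entry of the pathway (chromosome 17, 12943042 to 12960725), was at 2.95, 2.88, 2.85, 3.62, 2.64 and 3.11 FPKM in controls and at 2.43, 2.57, 2.42, 2.41 and 3.02 FPKM in PCOS. PCOS replicates 1 to 4 lay below every control, and PCOS replicate 5 lay among them. The means were 3.01 ± 0.337 FPKM (SD, n = 6) and 2.57 ± 0.260 FPKM (SD, n = 5), with a log2 difference of −0.17 (SE 0.08) that did not pass (limma adjusted p = 0.738).

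Idi1, the isomerase that readies isopentenyl diphosphate for chain building (chromosome 13, 8885606 to 8892396), was at 0.748, 0.528, 0.763, 0.911, 0.705 and 0.869 FPKM in controls and at 0.336, 0.384, 0.632, 0.591 and 0.483 FPKM in PCOS. Of the controls, 5 of 6 lay above every PCOS sample, and control replicate 2 lay among the PCOS samples. Its mean was under the filter, so it was not in the filtered test. In the fit with no filter its log2 difference was −0.24 (unadjusted p = 0.00522, limma adjusted p = 0.622), the smallest adjusted p of the 27 genes there, and without control replicate 6 it was −0.22 (limma adjusted p = 0.221, where 0.0986% of all rows were called). With a pseudocount of 0.1 in place of 1 the log2 difference was −0.56.

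Pmvk, phosphomevalonate kinase, was at 6.74, 7.19, 6.99, 6.92, 7.02 and 6.89 FPKM in controls, a narrow range, and at 5.99, 5.39, 6.87, 7.05 and 6.198 FPKM in PCOS, where 3 of 5 samples lay below every control. Its log2 difference was −0.13 (95% confidence interval −0.27 to 0.01). Mvk, mevalonate kinase, was at 5.47, 4.38, 4.53, 4.86, 3.51 and 3.68 FPKM in controls and at 4.17, 4.25, 4.82, 4.55 and 4.76 FPKM in PCOS, all inside the control range (log2 difference 0.04, 95% confidence interval −0.16 to 0.24). Mvd, which decarboxylates the product of Pmvk, had means of 4.25 ± 0.488 (SD, n = 6) and 4.24 ± 0.715 FPKM (SD, n = 5). These 2 kinases and the decarboxylase act in succession, and in each the groups overlapped.

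Fdps, farnesyl diphosphate synthase, averaged 12.4 ± 1.999 FPKM in controls and 11.1 ± 1.07 FPKM in PCOS samples, a log2 difference of −0.14 (SE 0.10) that was −0.07 without control replicate 6, its highest library. Its annotated exons share 1124 bases with the gene model Gm43738 on the same strand. Whether the authors counted reads against that model is not known, and its part in the Fdps values was not tested. Ggps1, which extends farnesyl to geranylgeranyl diphosphate for protein prenylation, was at 3.43 ± 0.214 and 3.37 ± 0.197 FPKM. Acat1 was at 230.2 ± 12.0 and 226.5 ± 6.21 FPKM, with the narrowest interval of the group (log2 difference −0.02, 95% confidence interval −0.13 to 0.09).

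At the steps that form squalene and lanosterol only Fdft1 was tested. Fdft1, squalene synthase, was at 10.05, 9.68, 11.2, 10.06, 8.61 and 8.16 FPKM in controls and at 9.31, 10.4, 11.3, 10.8 and 9.45 FPKM in PCOS. The groups overlapped, control replicate 6 was the lowest library and PCOS replicate 3 the highest. The log2 difference of 0.09 (SE 0.08) was 0.05 without control replicate 6. Its exons share 774 bases with Ctsb on the opposite strand. Ctsb, the lysosomal protease cathepsin B, averaged 112.5 ± 4.80 FPKM in controls and 126.2 ± 9.36 FPKM in PCOS samples. Which strand was counted is not given in the sources used here, so reads from the shared bases cannot be told apart. The same limit holds for other genes here with opposite-strand overlaps. These are Scap (985 bases), Hmgcs1 (557), Lbr (440), Lss (381), Idi1 (323), Ggps1 (257) and Cyp51 (166). Lbr also shares 69 bases with the rRNA gene Gm26004 on the same strand.

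Sqle, squalene epoxidase, a rate-limiting enzyme of the pathway (chromosome 15, 59315092 to 59331193), was at 0.725, 0.157, 0.0513, 0.346, 0.337 and 1.246 FPKM in controls and at 0.297, 0.229, 0.254, 0.252 and 0.318 FPKM in PCOS. The control libraries ran both below and above all PCOS libraries, with control replicates 6 and 1 the highest. With no filter its log2 difference was −0.17 (limma adjusted p = 0.856). It was −0.04 without control replicate 6 and −0.29 with a pseudocount of 0.1. Lss, which folds squalene epoxide into lanosterol (chromosome 10, 76531565 to 76557139), was at 0.625, 0.651, 0.421, 0.485, 0.503 and 0.749 FPKM in controls and at 0.701, 0.538, 0.416, 0.595 and 0.489 FPKM in PCOS. The groups overlapped over nearly their whole ranges, and with no filter the log2 difference was −0.02.

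From lanosterol to cholesterol, 0 of 9 tested genes passed, and 8 of 9 differences were negative (median −0.146). Without control replicate 6, 5 of 9 were negative (median −0.099). Hsd17b7, the 3-ketosteroid reductase of sterol demethylation (chromosome 1, 169949535 to 169969242), was at 1.88, 3.07, 3.16, 3.77, 2.72 and 2.33 FPKM in controls and at 2.003, 2.14, 2.10, 2.40 and 2.26 FPKM in PCOS. Of the controls, 4 lay above every PCOS sample, while control replicate 1 lay below all of them. The means were 2.82 ± 0.667 FPKM (SD, n = 6) and 2.18 ± 0.154 FPKM (SD, n = 5), the log2 difference −0.25 (SE 0.11, limma adjusted p = 0.738). It had the largest negative difference of the tested genes, and it was −0.28 without control replicate 6 (limma adjusted p = 0.205).

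Tm7sf2, one of 2 sterol C14 reductases, was the tested gene with the largest positive difference (chromosome 19, 6062821 to 6067850). It was at 2.18, 1.56, 1.34, 1.499, 1.14 and 3.11 FPKM in controls and at 2.30, 2.92, 1.65, 1.88 and 2.46 FPKM in PCOS, from 20 to 59 reads per library. Control replicate 6 was above every other library. The log2 difference was 0.23 (SE 0.16, limma adjusted p = 0.771). Without control replicate 6 it was 0.35 (95% confidence interval 0.08 to 0.62, limma adjusted p = 0.160), and 3 of 5 PCOS samples lay above all remaining controls. That fit called 0.294% of all rows, and 19.4% of rows had an unadjusted p under 0.05. Exons of Tm7sf2 share 532 bases with Vps51 on the same strand. Vps51, a subunit of vesicle tethering complexes, averaged 7.01 ± 0.845 FPKM in controls and 8.24 ± 0.790 FPKM in PCOS samples. Its part in the difference of Tm7sf2 was not tested.

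Lbr, the lamin B receptor of the inner nuclear membrane and the other C14 reductase, averaged 6.96 ± 0.792 FPKM in controls and 6.19 ± 0.705 FPKM in PCOS samples, a log2 difference of −0.15 (95% confidence interval −0.33 to 0.04). It had higher levels per length than Tm7sf2 in every library. Cyp51, lanosterol 14-alpha-demethylase (chromosome 5, 4080674 to 4104697), was at 3.89, 3.08, 4.08, 3.58, 3.47 and 5.15 FPKM in controls and at 2.98, 3.03, 4.08, 3.31 and 3.10 FPKM in PCOS. Control replicate 6 was the highest and PCOS replicate 3 was level with control replicate 3, the next. The difference of −0.17 (SE 0.10) was −0.11 without control replicate 6.

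Nsdhl, the sterol 4-alpha-carboxylate dehydrogenase (chromosome X, 72918521 to 72958528), was at 2.80, 3.996, 2.67, 2.71, 3.19 and 4.91 FPKM in controls and at 3.21, 2.48, 2.80, 2.12 and 2.86 FPKM in PCOS. Control replicates 2 and 6 were above all PCOS samples, and the other 4 controls lay among them. The log2 difference of Nsdhl was −0.23 (SE 0.13), and without control replicate 6 it was −0.14. Sc5d, lathosterol oxidase (chromosome 9, 42251592 to 42264300), was at 4.78, 5.35, 4.83, 4.80, 5.06 and 7.65 FPKM in controls and at 4.59, 4.31, 4.62, 4.95 and 4.36 FPKM in PCOS. For Sc5d, 4 of 5 PCOS samples lay below every control, by less than 0.5 FPKM. Its log2 difference was −0.19 (95% confidence interval −0.40 to 0.03), and without control replicate 6 it was −0.10 (95% confidence interval −0.23 to 0.03).

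Msmo1, the methylsterol monooxygenase (chromosome 8, 64718123 to 64733578), showed how much 1 library could weigh. It was at 4.37, 2.88, 3.75, 4.56, 3.60 and 9.99 FPKM in controls and at 3.45, 4.35, 4.59, 4.18 and 3.92 FPKM in PCOS. All libraries but control replicate 6 lay between 2.88 and 4.59 FPKM. The log2 difference was −0.12 (SE 0.21) with that library and 0.08 (SE 0.10) without it. Ebp, the sterol isomerase, averaged 11.4 ± 2.57 FPKM in controls and 11.2 ± 0.827 FPKM in PCOS samples, and Dhcr7, which makes the last reduction, at 2.98 ± 0.597 and 2.88 ± 0.262 FPKM. In both genes control replicate 6 was the highest library.

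**Figure D3:**
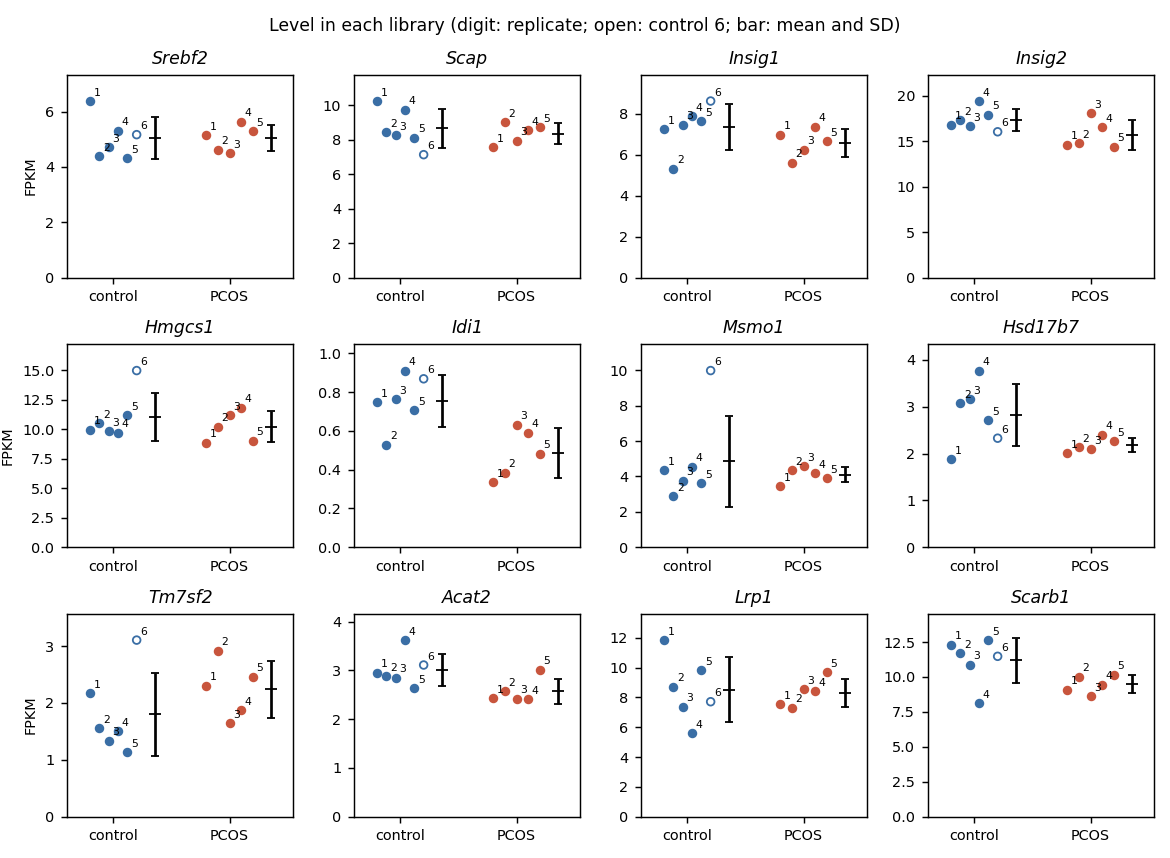
Level in FPKM of 12 of the genes in each library, with the mean and SD of each group. Groups overlap in all 12, control replicate 6 (open) is far above the rest in Msmo1 and Hmgcs1, and 5 of 6 controls lie above all PCOS samples in Idi1 and Scarb1.

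Of the uptake receptors, neither passed. Scarb1, the HDL receptor SR-BI, which is found on endothelium among other cells (chromosome 5, 125277087 to 125341094), was at 12.3, 11.7, 10.9, 8.12, 12.6 and 11.5 FPKM in controls and at 9.10, 10.01, 8.61, 9.45 and 10.2 FPKM in PCOS. Of the controls, 5 of 6 lay above every PCOS sample, and control replicate 4 lay below all of them. The means were 11.2 ± 1.63 FPKM (SD, n = 6) and 9.47 ± 0.643 FPKM (SD, n = 5), the log2 difference −0.21 (95% confidence interval −0.42 to −0.00, limma adjusted p = 0.738). Without control replicate 4 the difference was −0.29 (limma adjusted p = 0.256), and without control replicates 2, 5 and 6 it was −0.11. The 4 endothelial markers summed to 113.7 FPKM in control replicate 4, to 167.1 to 209.2 FPKM in the other controls and to 137.5 to 181 FPKM in PCOS. Control replicate 4 also had the lowest sums of several other marker lists, named below for Lrp1. The part of the endothelial markers in the difference of Scarb1 was not tested.

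Lrp1, a large endocytic receptor of lipoprotein remnants and many other ligands (chromosome 10, 127538157 to 127621148), was at 11.8, 8.73, 7.38, 5.58, 9.84 and 7.71 FPKM in controls and at 7.53, 7.32, 8.53, 8.40 and 9.68 FPKM in PCOS. The PCOS samples lay inside the control range, and the log2 difference was −0.01 (95% confidence interval −0.31 to 0.30). Control replicate 4, its lowest library, also had the lowest sum of the 4 fibroblast markers in the table, of 5 listed. That sum was 132 FPKM there and 215.6 to 284.9 FPKM in all others. It was highest in control replicate 6, where Lrp1 was at 7.71 FPKM. The low sum in control replicate 4 was not particular to fibroblast markers. That library was also lowest for the hepatocyte, macrophage, adipocyte, Schwann cell, red cell and endothelial lists, though not for the cardiomyocyte list. The part of any of these markers in the levels of Lrp1 was not tested.

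Control replicate 6 carried the highest value of 13 of the 27 genes and the lowest of 2, where it was highest in 18.7% and lowest in 20.7% of all tested rows. Against the median of the other 5 controls its level was 3.70 times for Sqle, 2.66 for Msmo1, 2.07 for Tm7sf2, 1.76 for Nsdhl, 1.58 for Sc5d, 1.53 for Ebp and 1.5 for Hmgcs1. Its level was nearer to or below that median for Srebf2 (1.10 times), Scap (0.85 times), Insig2 (0.93 times), Fdft1 (0.81 times), Mvk (0.81 times) or Mvd (0.91 times). All 12 hepatocyte markers were highest in this library, and their part in its sterol enzyme levels was not tested. The mean deviation of the 27 genes from their means over the 11 libraries was 0.21 on the log2(FPKM + 1) scale in this library and between −0.08 and 0.10 in the others. With the library set aside, control replicate 1 had the highest value of 8 of the 27 genes and a mean deviation of 0.12.

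Control samples varied more than PCOS samples for most of these genes. The coefficient of variation was larger in controls in 22 of 27 genes, and without control replicate 6 in 18 of 27. This spread was not tested, and the same count was not made over all rows. Whether it is particular to these genes is therefore not known.

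**Figure D4:**
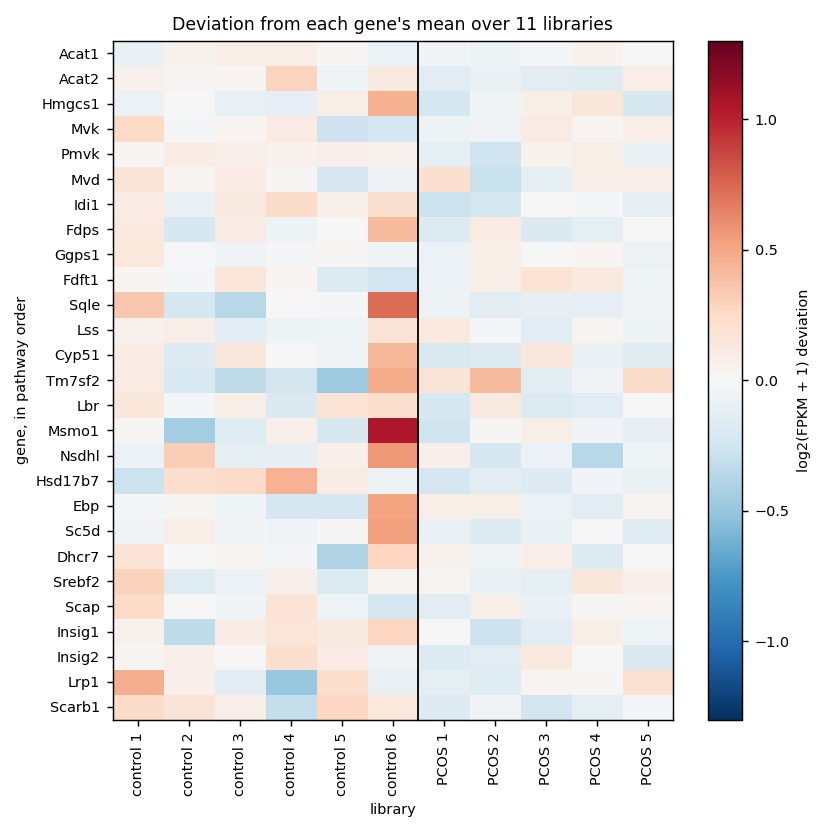
Deviation of each gene from its mean over the 11 libraries, log2(FPKM + 1), by library. The column of control replicate 6 is red for most enzymes from Fdps on, with Msmo1 and Sqle the deepest, while Srebf2, Scap, Mvk and Fdft1 are pale or blue there.

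In control replicates 2 and 5, with little Apoe transcript, the sterol genes lay on average close to their means. The mean deviation of the 27 genes was −0.02 in control replicate 2 and −0.04 in control replicate 5. Abca1, the cholesterol efflux pump induced by liver X receptors, was at 7.52 and 7.10 FPKM in these libraries and at 2.498 to 3.80 FPKM in the other 9. Abcg1, a second efflux transporter, was at 3.38 and 3.47 FPKM there and at 0.598 to 2.02 FPKM elsewhere. Of the SREBP2 genes, Srebf2 itself was at 4.38 and 4.31 FPKM there and at 4.49 to 6.38 FPKM elsewhere. Insig1 was lowest of all in control replicate 2 (5.31 FPKM) and was 7.64 FPKM in control replicate 5. Of the 27 genes, 3 were lowest in control replicate 2 and 4 in control replicate 5, with 1 highest in each. Without both libraries the median difference of the 24 genes was −0.123, with 21 of 24 negative and 0 called (0.0918% of all rows).

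Neighbouring parts of lipid metabolism gave 0 calls in the fit of all 11 libraries as well. In the list of SREBP1 and fatty acid synthesis all 13 tested genes, of 15 listed, had negative differences (median −0.211), which was the lowest median of the 6 neighbouring lists. Fasn, fatty acid synthase, averaged 3.69 ± 0.750 FPKM in controls and 2.60 ± 0.235 FPKM in PCOS samples, a log2 difference of −0.37 (SE 0.11, unadjusted p = 0.00415, limma adjusted p = 0.738). Its highest libraries were control replicates 5 and 2, at 4.75 and 4.26 FPKM. Acaca, acetyl-CoA carboxylase, averaged 1.49 ± 0.213 and 1.13 ± 0.182 FPKM (log2 difference −0.23, SE 0.09). Without control replicate 6, 11 of 13 were negative (median −0.141), and without control replicates 2, 5 and 6, 7 of 13 (median −0.106).

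Among SREBP processing and degradation partners 9 of 12 tested genes were negative (median −0.041). Srebf1, which encodes SREBP1, was at 8.07 ± 1.97 and 6.33 ± 0.722 FPKM (log2 difference −0.29, SE 0.13). Of the lipoprotein receptor family and partners, 6 of 8 were negative (median −0.121). The scavenger receptor and fatty acid transporter Cd36 differed by −0.18 (SE 0.08), and Lrp5, a Wnt co-receptor, by −0.26 (SE 0.12).

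The isoprenoid branch was near the background, with 7 of 15 negative (median 0.022). Its named genes were Rce1 (log2 difference 0.19, SE 0.09), which trims prenylated proteins, and Zmpste24 (−0.15, SE 0.08), which processes prelamin A. Genes of intracellular sterol transport had 8 of 14 negative (median −0.036). Npc2, which hands cholesterol out of lysosomes, was at 22.4 ± 2.10 and 25.4 ± 1.69 FPKM (log2 difference 0.18, SE 0.07), and Scp2, sterol carrier protein, at 136.5 ± 9.81 and 120.3 ± 13.0 FPKM (log2 difference −0.18, SE 0.08).

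For sterol efflux, oxysterols and esters, 6 of 9 were negative (median −0.110). Cyp27a1, which makes 27-hydroxycholesterol, was at 9.63 ± 1.41 and 12.3 ± 2.97 FPKM (log2 difference 0.31, SE 0.13, limma adjusted p = 0.738). Apoe differed by 2.2 (SE 0.93, limma adjusted p = 0.738), with controls spread from 6.04 to 486.3 FPKM and PCOS samples between 274.3 and 336.7 FPKM. It was the 1 gene of the 6 lists called in any of the 3 repeats that left out control replicate 6, control replicates 2 and 5, or all 3 of them: without all 3 it differed by 1.12 (limma adjusted p = 0.0230), in a fit that called 0.202% of all rows.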

How the data were processed

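RNA of 11 mouse heart samples was sequenced after mirVana extraction and TruSeq stranded mRNA library preparation, per the labels' protocols. HISAT2 (2.2.1), HTSeq (0.13.5), DESeq2 (1.18.1), R (3.4.1), Trimmomatic (0.38), FastQC (0.11.9) and mm10 are named, with no role or order, in the submitters' processing notes. Settings and the strand counted are not given in the sources used here. The authors deposited gene-level FPKM values, a unit relative to the library total and the transcript length. Groups and replicate numbers came from sample titles.

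Accessions were matched to RefSeq GRCm38.p6 (87.2% of rows; 23 of the 27 genes by version and 4 by accession with another version). Exon overlaps came from GENCODE M21 on the same assembly. FPKM values above 0 in at least 3 samples were whole multiples of what 1 read is worth in all 15939 rows (largest distance from a whole number 0.000322). Depth comes from these reads.

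Differences were tested with limma 3.58.1 in R 4.3.3 (trend) on log2(FPKM + 1), rows with mean FPKM of at least 1, Benjamini-Hochberg over 10891 rows. The recovery and the fit were tested on simulated data. All 28 symbols count as named genes; values in every sample are given for the regulators, receptors, key enzymes, the largest differences and those with unadjusted p under 0.05. Up to 2 genes with the smallest p were named per neighbouring list. One gene that this rule names is not reported here. Protein identity between related genes was planned and not analysed here. Genes and lists were chosen with earlier results of these data known. Alternatives were other pseudocounts, filters and scalings, sample weights, a replicate block, left-out libraries and, added after the data were seen, voom on the recovered reads.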

Additional observations from a re-analysis of the deposited data

Results flagged for a closer look

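Within 54 groups of values (27 genes, controls and PCOS), a gap test for a library far from the rest of its group picked out 6, where chance gives about 1 in 20 groups. Control replicate 6 was picked out in 4 of them, all high: Hmgcs1 at 14.97 FPKM against 9.71 to 11.2 in the other controls, Sc5d at 7.645 FPKM against 4.78 to 5.35, Msmo1 at 9.986 FPKM against 2.88 to 4.56 and Ebp at 16.43 FPKM against 9.49 to 11.4. This library also held hepatocyte transcripts, and their part in these values was not tested. Ggps1 in control replicate 1 was at 3.845 FPKM against 3.26 to 3.45 in the other controls. Acat2 in PCOS replicate 5 was at 3.019 FPKM against 2.41 to 2.57 in the other PCOS samples.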

How the results depend on the processing

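No gene of the group was called in any of 21 alternatives, with a smallest adjusted p of 0.16. The count of all rows called, 15, was 5 with a mean FPKM of at least 5, 27 with the replicate number as a block, 25 with sample weights, and 10 to 32 when each library was left out (32 without control replicate 6). The median difference was −0.038 with sample weights and −0.126 to −0.055 over the left-out libraries. Of 24 tested genes, 13 kept their sign throughout. Signs changed under quantile normalization for Ebp (0.004) and Mvd (0.003), both near 0. With sample weights they changed for Dhcr7 (0.006), Msmo1 (0.096) and Ebp (0.060). Without control replicates 2 and 5 they changed for Mvk (−0.024), Srebf2 (−0.079) and Lrp1 (0.063), and without control replicate 6 as well for Mvk (−0.110), Srebf2 (−0.094), Lrp1 (0.055), Hmgcs1 (0.043), Fdft1 (−0.022) and Ebp (0.097). The causes were not tested.

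When single libraries were left out, Dhcr7 ranged from −0.106 to 0.027, Ebp from −0.050 to 0.096, Ggps1 from −0.041 to 0.006, Lrp1 from −0.108 to 0.085, Msmo1 from −0.216 to 0.084, Mvd from −0.066 to 0.063, Mvk from −0.013 to 0.092, Scap from −0.087 to 0.007 and Srebf2 from −0.031 to 0.064.

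With the replicate block, which drops control replicate 6, the signs of Dhcr7 (0.027), Msmo1 (0.084), Ebp (0.096) and Mvk (−0.002) changed. Same-numbered samples correlated between −0.118 and 0.254 in their deviations from group means, and 0 of 5 matched their own number best. The labels do not say whether the numbers pair the samples, and 5 such correlations are too few to decide it.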
